A study of Mus musculus with 36 samples.

Results

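The comparison set whole brains of sleep-deprived DBA/2J mice against those of sleep-deprived AKR/J mice. Its differences came from 6 of the series' 36 arrays, 3 from each strain, chosen by tissue, strain and condition as the labels give them. All 45037 probe sets that are not control probe sets were used. The series covered brain and liver of DBA/2J, AKR/J and C57BL/6J males, aged 12 to 13 weeks, with and without sleep deprivation. The sleep-deprived mice had been kept awake for 6 h from light onset and were killed at Zeitgeber time (ZT) 6, that is 6 h after lights came on. Each array held equal amounts of RNA pooled from 3 mice, so that the 3 arrays of a group stood for 9 mice and their spread is that between pools. The control DBA/2J and AKR/J brains and the sleep-deprived livers of the same strains again had 3 arrays each. Their values are given below only where the sleep-deprived brains are set beside them. All 18 brain arrays, C57BL/6J included, were fitted together. The other brain groups thus also entered the standard errors and p-values of the sleep-deprived comparison. Of the 3 AKR/J control brain arrays, numbers 2 and 3 have labels that conflict. They give ZT 6 in the title and ZT 0 in the source name. The conflict touches the means of the control comparison. It reaches the sleep-deprived comparison only through the spread that the brain groups share in the fit. That comparison was fitted without these arrays only where all other groups were left out as well.

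DBA/2J and AKR/J are inbred strains that differ at many places in the genome, so every mouse of a strain carries the same alleles at nearly every gene. Transcripts can differ between such strains whatever the animals are doing, while sleep loss adds a response of its own, in which immediate early genes, chaperones and clock genes are known to take part. On a 3' expression array a probe set reads the amount of a transcript together with any base difference under its probes, and so several probe sets of a gene can disagree between strains. In whole brain, fewer cells of a type and less RNA per cell cannot be told apart.

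Arrays of a strain correlated at 0.984 to 0.997 and arrays of different strains at 0.982 to 0.993. DBA/2J array 2 and AKR/J array 3 had narrower spreads of values over probe sets (SD 1.93 and 1.96 on the log2 scale) than the other 4 arrays, and the calls of named genes that were lost without one of them are given with their value without it. The arrays carried the markers of brain: the 13 neuronal genes averaged 10.41 to 10.57 on the DBA/2J arrays and 10.57 to 10.63 on the AKR/J arrays (log2).

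Of the 45037 probe sets, 704 (1.56%) differed between sleep-deprived DBA/2J and AKR/J brains in limma's moderated test at an adjusted p under 0.05. DBA/2J was higher at 350 (0.777%) and lower at 354 (0.786%). By the brightest probe set of each gene, 280 of 18193 genes (1.54%) differed, 121 of them higher in DBA/2J (0.665%) and 159 lower (0.874%). At an unadjusted p under 0.05 there were 1416 genes (7.78%). The median size of the called differences was 0.76 on the log2 scale, against 0.08 over all probe sets, and 234 differences reached 1, a doubling of the linear value, of which 128 were higher and 106 lower in DBA/2J. A difference of at least 2 was seen at 52. The split between directions depended on single arrays: without DBA/2J array 2 the counts were 435 higher and 254 lower, without AKR/J array 3 they were 277 higher and 438 lower, and without both they were 345 and 313.

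Cap1 and Pisd-ps3 had the largest differences on the higher side. Cap1, which encodes a protein that regulates actin turnover, measured 9.55, 9.19 and 9.62 in DBA/2J and 5.81, 5.68 and 5.87 in AKR/J (log2). The DBA/2J arrays lay far above the AKR/J arrays with no overlap, a difference of 3.67 ± 0.13 (SE, n = 3 arrays per strain), or 12.7-fold (limma adjusted p = 2.63e-11). The other probe set of Cap1 gave 4.16. Pisd-ps3, a pseudogene of the enzyme that makes phosphatidylethanolamine in mitochondria, measured 10.63, 10.50 and 10.74 in DBA/2J and 7.19, 6.97 and 7.50 in AKR/J. All 5 of its probe sets were called higher, by 1.07 to 3.64.

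Snhg14, a long non-coding RNA that hosts small nucleolar RNAs and runs antisense to Ube3a, had the largest measured log2 difference of all called genes by representative probe set, on the lower side. It measured 3.84, 3.18 and 4.19 in DBA/2J, near the low end of the scale, and 8.32, 8.32 and 8.14 in AKR/J. Its difference was -4.53 ± 0.26 (adjusted p = 7.45e-09) on 1 of its 3 probe sets; the others gave 0.06 and 0.31 and did not pass. Tmem267, a transmembrane protein gene, measured 3.88, 3.53 and 3.97 in DBA/2J against 7.08, 6.80 and 6.41 in AKR/J, again with no overlap. No fold is given for these genes, since their DBA/2J values were not shown to be above background. Neat1, the non-coding RNA around which nuclear paraspeckles form, measured 5.95, 6.45 and 5.80 in DBA/2J and 7.88, 7.95 and 8.21 in AKR/J and was 3.85-fold lower in DBA/2J (adjusted p = 2.62e-07) on 1 of 2 probe sets.

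Kcnma1, Pcdhb9, Slc8a1, Pam and Cnih4 were also among the 15 largest on the higher side. Kcnma1, the pore subunit of the large-conductance calcium-activated potassium channel, measured 8.72, 8.62 and 8.83 in DBA/2J and 6.72, 6.93 and 6.48 in AKR/J. It was 4.03-fold higher in DBA/2J (2.01 ± 0.24, adjusted p = 6.37e-05), and of its other 4 probe sets 1 was called, at 0.54. Pcdhb9, a protocadherin of the beta cluster, was higher by 2.01 ± 0.32. Slc8a1, a sodium-calcium exchanger, measured 8.54, 8.22 and 8.50 in DBA/2J and 7.34, 7.47 and 5.47 in AKR/J, where array 3 stood apart from the other two. Its difference was 1.66 ± 0.36 (adjusted p = 0.0242), and without that array it was 1.01 (adjusted p = 0.01525). Pam, the enzyme that amidates neuropeptides, was higher by 1.88 ± 0.11, and Cnih4, of the cornichon family of cargo receptors, by 1.64 ± 0.20.

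Others of the 15 largest on the higher side were Stab2, a scavenger receptor for hyaluronan (2.88 ± 0.18), Ogfrl1, a relative of the opioid growth factor receptor (2.62 ± 0.12), and the RNA-binding protein gene Rbm45 (2.48 ± 0.11). Morn2 (1.79 ± 0.18), the aldo-keto reductase Akr1e1 (1.57 ± 0.14) and the protease inhibitor Serpina1b (1.48 ± 0.30) completed them, with the 2 class I genes described below. Serpina1b did not pass without DBA/2J array 2 (1.14, adjusted p = 0.0587). On the lower side, Acer3, an alkaline ceramidase, was lower by -1.86 ± 0.21, the phosphoinositide phosphatase Mtm1 by -1.65 ± 0.21, and Ddah1, which degrades an inhibitor of nitric oxide synthase, by -1.56 ± 0.21. Timmdc1, an assembly factor of respiratory complex I, was lower by -1.44 ± 0.20 and the mitotic kinase Nek2 by -1.80 ± 0.24. Krt12, a keratin best known from cornea (-1.97 ± 0.20), Abhd1 (-1.90 ± 0.20) and Sbsn (-1.67 ± 0.14) were also lower. So were 1500011B03Rik (-1.93 ± 0.08), 2010315B03Rik (-1.89 ± 0.24) and, by its brightest probe set, Snhg11 (-1.40 ± 0.15), whose other probe set was called higher.

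**Figure D1:**
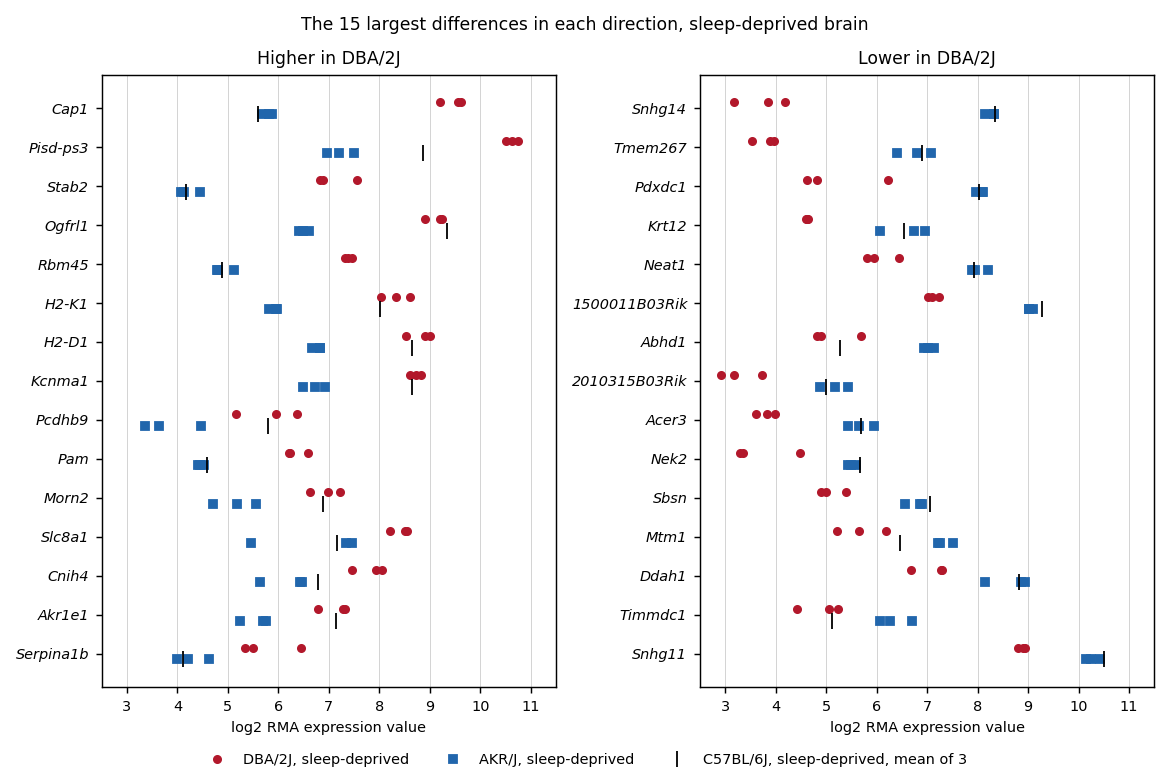
Log2 RMA expression values of the 15 genes with the largest higher and the 15 with the largest lower difference in sleep-deprived DBA/2J brain; circles are the 3 DBA/2J arrays, squares the 3 AKR/J arrays, and ticks the mean of the 3 sleep-deprived C57BL/6J arrays. No gene's DBA/2J arrays overlap its AKR/J arrays, and Slc8a1 has 1 AKR/J array, at 5.47, well below the other 2.

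Of these 30 genes, 21 had more than 1 probe set, and in 17 of the 21 some probe set was not called. In 4 (Ogfrl1, H2-D1, Pdxdc1 and Snhg11) probe sets were called in opposite directions, so the differences given for them are those of the brightest probe set. Pdxdc1, a gene with a pyridoxal-dependent decarboxylase domain, was 7.08-fold lower by its brightest probe set (-2.82 ± 0.26), while another gave 3.44, higher in DBA/2J, so no direction can be given for the gene as a whole. Over all 446 genes with a called probe set and 1 symbol, 332 had several. Every probe set was called in the same direction in 21 of these, 294 had calls in 1 direction beside probe sets that were not called, and 17 had calls in both directions, 13 of them beside probe sets that were not called.

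**Figure D2:**
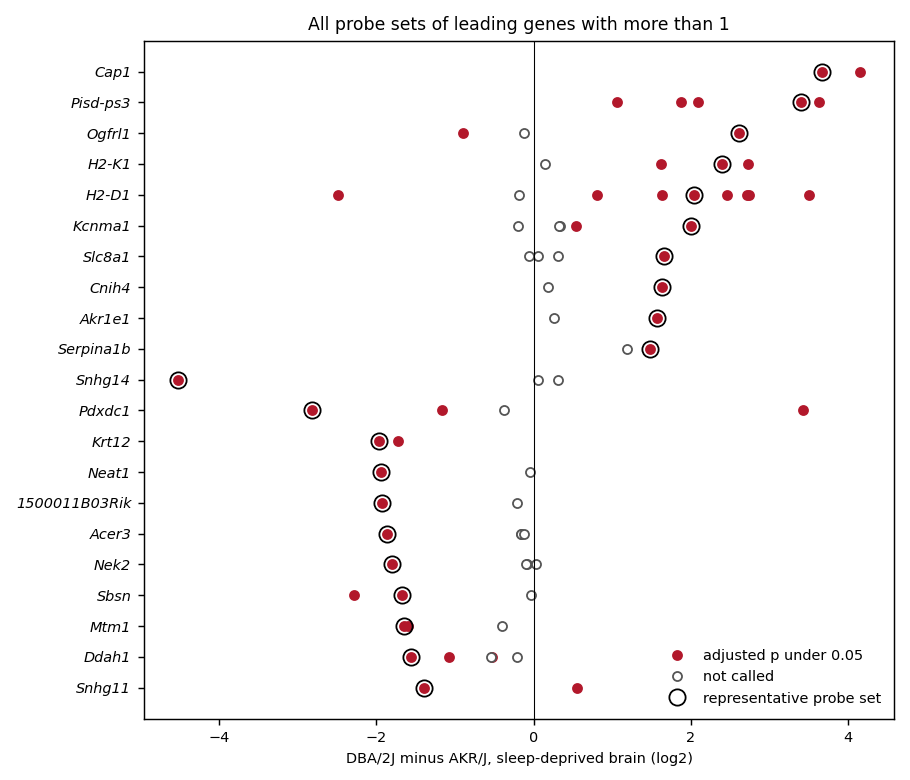
Differences between sleep-deprived DBA/2J and AKR/J brain (log2) for every probe set of the 21 leading genes that have more than 1; filled points have an adjusted p under 0.05, open points do not, and a ring marks the brightest probe set. The 5 probe sets of Pisd-ps3 all lie on the higher side, while those of Pdxdc1 run from -2.82 to 3.44.

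Class I molecules of the major histocompatibility complex (MHC) present peptides to T cells, and the genes are highly variable between inbred strains. H2-K1 measured 8.33, 8.62 and 8.02 in DBA/2J and 5.82, 5.96 and 5.97 in AKR/J, and H2-D1 measured 8.90, 9.01 and 8.52 in DBA/2J and 6.82, 6.82 and 6.66 in AKR/J. In both genes the lowest DBA/2J array lay above the highest AKR/J array. H2-K1 was 5.30-fold higher in DBA/2J (2.41 ± 0.15, adjusted p = 2.25e-08) and H2-D1 4.11-fold higher (2.04 ± 0.12, adjusted p = 1.54e-08). Of the 9 probe sets of H2-D1, 7 were called higher and 1 lower, at -2.50. H2-Ab1, a class II chain, was higher by 0.56 ± 0.08 (adjusted p = 0.0007578) on 1 of 3 probe sets. With only these 2 groups in the fit it did not pass (adjusted p = 0.0917). No other member of the 19 measured genes of MHC and antigen presentation was called. The 3 of 19 called stand beside 1.54% of all genes. The median of the list was 0.07 against -0.03 over all genes.

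H2-K1 and H2-D1 differed in the same direction. Fos and Nr4a1, described below, had among the smallest p-values for a change in the strain difference with sleep deprivation, but neither passed. For these reasons the 250 bases before the start of each of these genes are shown. The sequences are the C57BL/6J reference of RefSeq, build GRCm38.p6, read 5' to 3' in the gene's direction, and not those of DBA/2J or AKR/J. H2-K1 has 2 starts in the table, of which the one listed first is shown. Capitals mark matches on either strand to TGACG, which reads CGTCA on the other strand and is the core of the cAMP response element, and to GGGATTCCC, a kappa B site. Over 32536 distinct upstream windows of the same length, 17.9% hold TGACG and 0.301% hold GGGATTCCC.
H2-K1 (chr17:34000348-34000597, minus strand): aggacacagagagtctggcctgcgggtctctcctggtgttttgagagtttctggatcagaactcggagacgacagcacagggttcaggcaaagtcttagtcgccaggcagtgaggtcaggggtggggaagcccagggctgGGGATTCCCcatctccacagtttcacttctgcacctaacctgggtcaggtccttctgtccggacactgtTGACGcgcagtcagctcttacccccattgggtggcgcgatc
H2-D1 (chr17:35262844-35263093, plus strand): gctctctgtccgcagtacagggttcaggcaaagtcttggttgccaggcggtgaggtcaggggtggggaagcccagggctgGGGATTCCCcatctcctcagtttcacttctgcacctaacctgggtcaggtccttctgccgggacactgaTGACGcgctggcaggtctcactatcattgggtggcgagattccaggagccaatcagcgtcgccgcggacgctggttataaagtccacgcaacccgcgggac
Fos (chr12:85473640-85473889, plus strand): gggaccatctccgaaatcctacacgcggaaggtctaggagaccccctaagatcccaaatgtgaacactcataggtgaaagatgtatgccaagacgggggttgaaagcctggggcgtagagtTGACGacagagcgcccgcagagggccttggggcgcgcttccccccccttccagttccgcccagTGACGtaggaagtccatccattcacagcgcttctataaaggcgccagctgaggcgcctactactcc
Nr4a1 (chr15:101266596-101266845, plus strand): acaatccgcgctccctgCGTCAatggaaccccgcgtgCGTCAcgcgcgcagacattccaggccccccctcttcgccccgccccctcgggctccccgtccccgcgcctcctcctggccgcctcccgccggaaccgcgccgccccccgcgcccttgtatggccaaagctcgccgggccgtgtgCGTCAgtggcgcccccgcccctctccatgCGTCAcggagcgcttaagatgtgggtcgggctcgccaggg
The H2-K1 and H2-D1 windows each hold 1 match to GGGATTCCC and 1 to TGACG. The Fos window holds 2 matches to TGACG and the Nr4a1 window 4, neither holds GGGATTCCC, and matches of the different motifs overlapped in none of these windows.

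Many of the strain differences were also called without sleep deprivation. In control brains 714 probe sets (1.59%) differed between DBA/2J and AKR/J, 345 higher (0.766%) and 369 lower (0.819%). Of the 704 called in sleep-deprived brain, 483 were called in the same direction in control brain, which is 68.6% of the sleep-deprived calls and 67.6% of the control calls, and 0 were called in the opposite direction. The sign was the same at 699 of the 704. The share depended on the fit and moved in both directions. With array weights in the sleep-deprived comparison 28.7% of its 2092 calls were shared with the unweighted control calls. Only 714 control calls stood against those 2092, so most of the 2092 could not be shared. With only the 2 sleep-deprived groups in that fit, 92.9% of its 282 calls were shared with the main control calls. With array weights in the control comparison, 90.5% of the 704 were shared. Leaving out single control arrays in turn gave shares of 56.5% to 58.7% of the 704. The share was lower without the 2 AKR/J controls of conflicting ZT, which left 1 array in that group. By representative probe set, 281 genes (1.54%) differed in controls, 139 higher (0.764%) and 142 lower (0.781%). Of the 30 leading genes, 28 were called in the same direction in controls, the exceptions being Slc8a1 (0.73, adjusted p = 0.717) and Serpina1b (0.87, adjusted p = 0.288). The control differences of Cap1 (3.90) and Snhg14 (-4.55) were close to those after sleep deprivation.

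The test of the difference itself, that is the strain difference in sleep-deprived brain minus that in control brain, called 0 probe sets in limma (0%). At an unadjusted p under 0.05 there were 1029 (2.28%), and the smallest adjusted p was 0.411. Leaving the other 2 groups out of the fit gave 3 calls, array weights 3, and leaving out DBA/2J control array 3 gave 1. All other alternatives gave 0. A probe set called in one condition and not in the other is therefore not shown to differ between them.

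**Figure D3:**
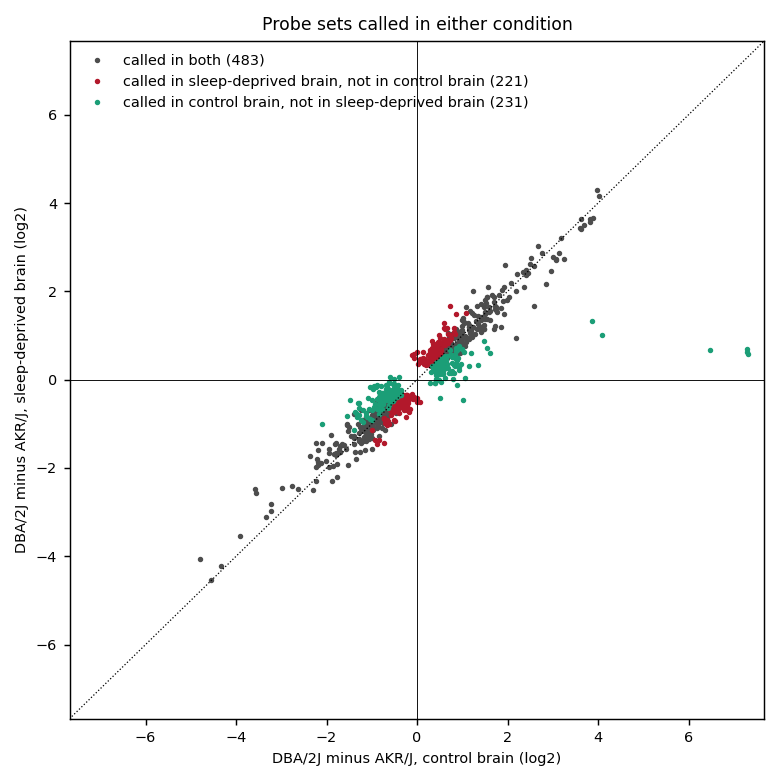
Difference between DBA/2J and AKR/J (log2) in sleep-deprived brain, vertical axis, against that in control brain, horizontal axis, for the 935 probe sets called in either condition; the dotted line marks equal differences. Points called in both (483) lie along the line, and the 6 far to the right of it are probe sets of the pituitary hormone genes Gh, Prl and Cga, among them Gh at 0.67 in sleep-deprived and 6.48 in control brain.

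Of the 5 genes with the smallest p in that test, 4 were immediate early genes (Egr1, Nr4a1, Fos and Arc), which neurons switch on within minutes of activity. Fos, a transcription factor subunit, measured 7.94, 7.18 and 7.64 in sleep-deprived DBA/2J and 8.30, 8.01 and 7.84 in sleep-deprived AKR/J, and 7.87, 7.61 and 7.93 in control DBA/2J against 6.66, 6.48 and 7.24 in control AKR/J. The strains overlapped after sleep deprivation (-0.46 ± 0.20, adjusted p = 0.554), while in controls every DBA/2J array lay above every AKR/J array (1.01 ± 0.20, adjusted p = 0.0101). That control call was lost under 5 of 14 alternatives, among them leaving out the AKR/J controls of conflicting ZT (1.15, adjusted p = 0.0599). The change in the strain difference was -1.47 ± 0.28, with an unadjusted p of 7.45e-05 and an adjusted p of 0.839.

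Nr4a1, an orphan nuclear receptor, measured 8.64, 8.28 and 8.63 in sleep-deprived DBA/2J and 9.18, 8.92 and 8.68 in sleep-deprived AKR/J, against 8.55, 8.61 and 8.66 in control DBA/2J and 7.95, 8.12 and 8.21 in control AKR/J. DBA/2J was the lower strain on every array after sleep deprivation (-0.41 ± 0.12, adjusted p = 0.164) and the higher on every array in controls (0.51 ± 0.12, adjusted p = 0.0444). The control call was lost under 9 of 14 alternatives: with the replicate block (adjusted p = 0.0751), with median centring, without any single control array (0.0671 to 0.243) and with AKR/J controls 2 and 3 left out (0.206). The zinc finger factor Egr1 had the same order, at 10.58, 10.35 and 10.45 in sleep-deprived DBA/2J and 10.96, 10.91 and 10.66 in sleep-deprived AKR/J, with control values of 10.27, 10.32 and 10.41 in DBA/2J and 9.92, 9.84 and 10.09 in AKR/J. Its strain difference was -0.38 after sleep deprivation and 0.38 in controls (adjusted p = 0.0772 and 0.0745). Arc, which acts at the synapse in receptor turnover, gave -0.34 and 0.53, neither of which passed. The change in the strain difference of Nr4a1 (-0.92 ± 0.17) and Egr1 (-0.76 ± 0.14) had an adjusted p of 0.839, and that of Arc (-0.87 ± 0.22) of 1.

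Over the list of activity-regulated genes, by representative probe set, 0 of 38 measured members were called in either direction in sleep-deprived brain, where their median difference was -0.12 against -0.03 over all genes. In sleep-deprived brain 31 of the 38 had a negative difference, and in control brain 28 had a positive one, with a median of 0.19 against 0.0047 over all genes. The change in the strain difference was negative for 34 of 38, with a median of -0.19 against -0.03 over all genes. How many of all genes had a negative change was not counted. Other lists were one-sided too: the change was negative for 22 of 24 interferon-stimulated and 34 of 45 respiratory chain genes. It was positive for 8 of 10 endothelial genes. The arrays of the strains did not overlap for 6 of the 38 (4 lower and 2 higher in DBA/2J). Over all genes this was so for 10.2%, 7.15% lower and 3.09% higher. At an unadjusted p under 0.05 there were 9 of the 38 in limma's test, beside 7.78% of all genes. Another probe set was called lower for 2 members, Ptgs2 (-0.85 ± 0.21, adjusted p = 0.0485) and Ier5 (-1.37 ± 0.24, adjusted p = 0.0038). By representative probe set Egr2 had the largest difference of the list, with 5.06, 4.41 and 4.43 in DBA/2J and 5.77, 5.71 and 4.89 in AKR/J (-0.83 ± 0.20, adjusted p = 0.0508), and Nptx2, a secreted pentraxin of excitatory synapses, followed (-0.65 ± 0.18, adjusted p = 0.0987). The call depended on the arrays: without AKR/J array 3, Egr1, Nr4a1, Egr2 and Nptx2 passed. Without DBA/2J array 2 the same genes did not pass (limma adjusted p = 0.236, 0.456, 0.184 and 0.322). Over all probe sets, the lower calls also went from 354 to 438 without AKR/J array 3. Homer1, a synaptic scaffold gene, had 6 probe sets, at -0.40 to -0.05, of which 0 passed.

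**Figure D4:**
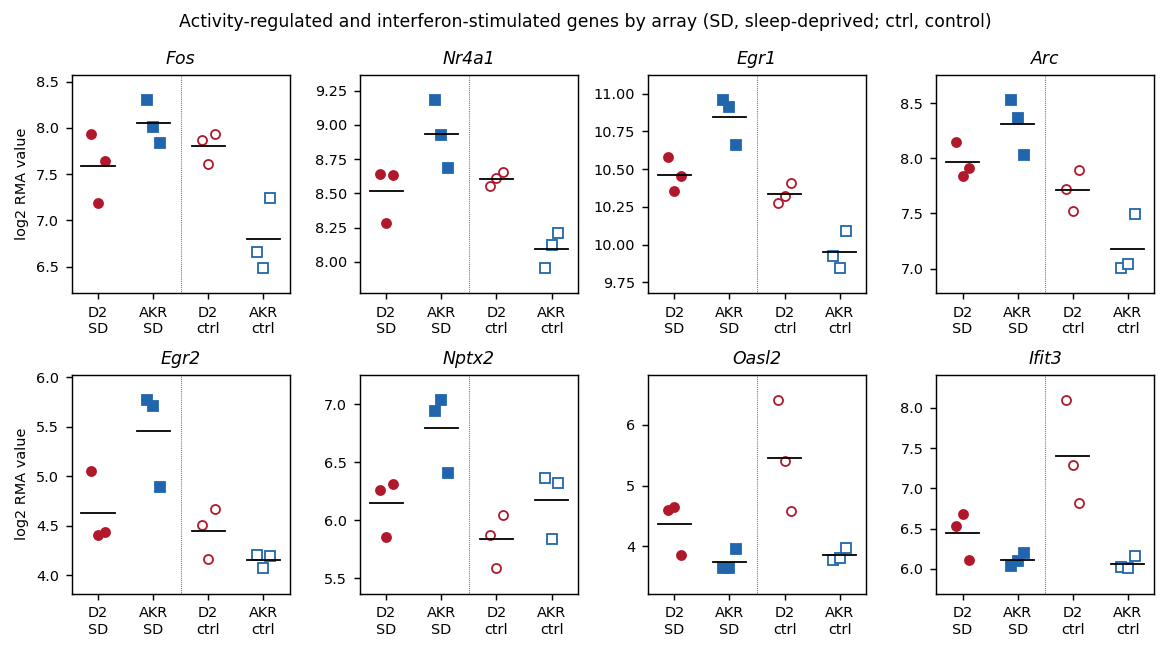
Log2 RMA values by array for 6 activity-regulated genes and 2 interferon-stimulated genes in sleep-deprived brain (filled) and control brain (open), with DBA/2J (D2) as circles left of AKR/J (AKR) as squares; bars are means of 3 arrays. For Nr4a1 and Egr1 the DBA/2J arrays lie below the AKR/J arrays after sleep deprivation and above them in controls.

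Interferon-stimulated genes, which respond to antiviral signalling, had calls in controls. By representative probe set, limma called 0 of 24 measured in sleep-deprived brain (median 0.12). At an unadjusted p under 0.05 there were 3, beside 7.78% of all genes, and 1 member had another probe set called higher. In controls 5 were called higher in DBA/2J by representative probe set (median 0.46), beside 0.764% of all genes. Ifit3 measured 6.54, 6.69 and 6.11 in sleep-deprived DBA/2J and 6.03, 6.10 and 6.20 in sleep-deprived AKR/J, against 8.10, 7.29 and 6.82 in control DBA/2J and 6.02, 6.01 and 6.17 in control AKR/J. The DBA/2J controls stood above all other arrays. Ifit3 and Oasl2 changed their strain difference by -1.0 ± 0.32 and -0.99 ± 0.43, each with an adjusted p of 1.

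In the other lists of the sleep-loss response 3 of 102 members were called (2.94%), beside 1.54% of all genes. In the list of 24 cytosolic heat shock genes 1 was called: Hspe1, whose product works as a co-chaperonin in mitochondria and not in the cytosol, was lower in DBA/2J by -0.48 ± 0.11 (adjusted p = 0.0254). Hspa1b, the inducible heat shock protein, did not pass (-0.28 ± 0.26, adjusted p = 0.9998). Hyou1, a chaperone of the endoplasmic reticulum, was higher by 0.44 ± 0.10 (adjusted p = 0.0267), alone of 24, and Hspa5 gave -0.08. Hspe1 did not pass without DBA/2J array 2 (-0.44, adjusted p = 0.0943). In all, Hspe1 did not pass under 7 and Hyou1 under 6 of 16 alternatives. Hspe1 was called on 1 of 2 probe sets and Hyou1 on 1 of 3. Among 20 glucocorticoid-induced genes, Klf9, a transcription factor, was lower by -0.88 ± 0.11 (adjusted p = 0.0001794), while another of its 7 probe sets was called higher at 0.65. By representative probe set, limma called 0 of 21 clock genes, Per1, Per2 and Dbp among them (-0.08, -0.29 and -0.08). It also called 0 of 14 genes of adenosine signalling and sleep electroencephalography, of which 1 had another probe set called higher. At an unadjusted p under 0.05 there were 0 and 1, beside 7.78% of all genes.

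Of genes that set neuronal excitability, Gabbr1, a subunit of the metabotropic GABA receptor, was lower by -0.39 ± 0.08 (adjusted p = 0.0132). By representative probe set it was alone of 14 GABA genes, beside 1.54% of all genes. Counting any probe set, 2 GABA genes were called lower. Gabbr1 was called on 1 of 4 probe sets and did not pass under 5 of 16 alternatives. Among these were the fits without DBA/2J array 2 (-0.37, adjusted p = 0.0509) and without AKR/J array 3 (-0.33, adjusted p = 0.0603). Kcnma1 was the call among 28 potassium channel genes, beside 1.54% of all genes. Limma called 0 of 27 glutamate receptor and scaffold genes and 0 of 22 neuropeptide genes. At an unadjusted p under 0.05 these 2 lists had 4 and 0 (7.78% of all genes). Of 32 genes of glutathione and aldehyde metabolism, 2 were called by representative probe set, beside 1.54% of all genes. The retinal-oxidising enzyme Aldh1a1 was higher by 0.97 ± 0.10 (adjusted p = 9.67e-06). The glutathione transferase Mgst3 was higher by 0.67 ± 0.15 (adjusted p = 0.0237), or 0.42 without AKR/J array 3 (adjusted p = 0.0313). Mgst3 was called on 1 of 2 probe sets and did not pass under 3 of 16 alternatives. Of 37 cytosolic ribosomal protein genes, Rps6 was lower by -1.32 ± 0.13 and Rps2 by -0.88 ± 0.08, and Rps25 was higher by 0.62 ± 0.13. These were the calls of that list by representative probe set, beside 1.54% of all genes. Rps6 was lower on 1 of its 2 probe sets. Rps25 did not pass under 5 of 16 alternatives, among them the fit without AKR/J array 3 (0.46, adjusted p = 0.0626). By representative probe set, complement (19 genes), the Ifi200 family (8), the respiratory chain (45) and genes with known strain alleles (8) had 0 calls. At an unadjusted p under 0.05 in limma's test they had 2, 0, 0 and 2 members, against that same 7.78%. Counting any probe set, 1 respiratory chain gene was called higher and 1 gene with known strain alleles lower.

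**Figure D5:**
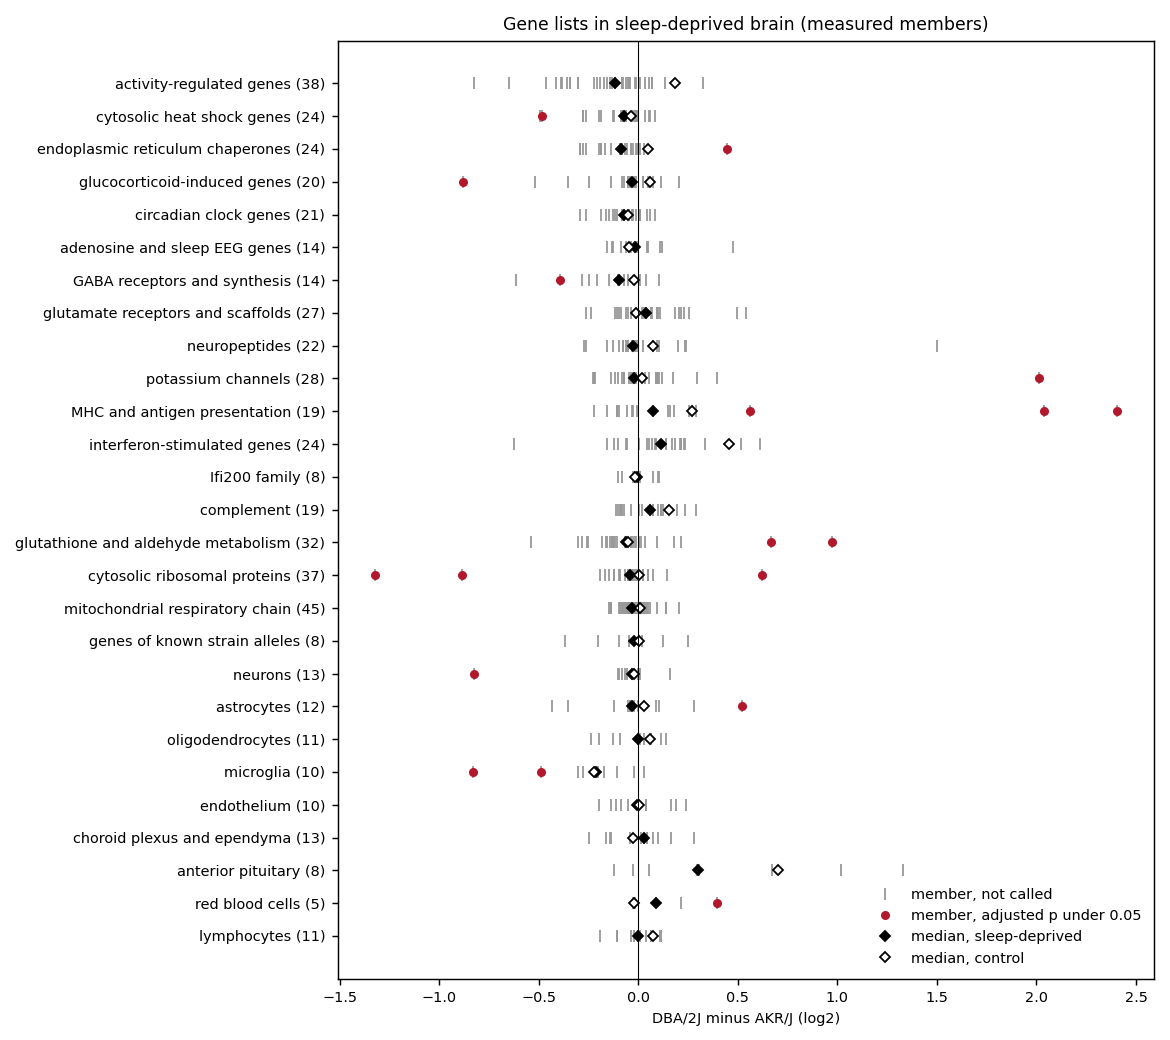
Differences between sleep-deprived DBA/2J and AKR/J brain (log2) for the measured members of 27 gene lists, whose size is in brackets; filled circles passed an adjusted p of 0.05, black diamonds are list medians and white diamonds the medians in control brain. In all, 18 of 509 members passed, beside 1.54% of all genes, and most medians lie near 0.

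Of 93 markers of cell types, 5 were called (5.38%), beside 1.54% of all genes. Slc17a7, the vesicular glutamate transporter of cortical neurons, was lower in DBA/2J by -0.82 ± 0.11 (adjusted p = 0.0002778), alone of 13 neuronal markers by representative probe set. Another neuronal marker had a probe set called higher. Slc1a2, the main astrocytic glutamate transporter, was higher by 0.52 ± 0.10 (adjusted p = 0.0112) on 1 of 5 probe sets, alone of 12 astrocyte markers by representative probe set. It did not pass under 3 of 16 alternatives, and another astrocyte marker had a probe set called lower. Of 10 microglial markers, 9 were negative (median -0.21) and 2 were called lower: the purinergic receptor P2ry12 (-0.83 ± 0.20, adjusted p = 0.0412) and Tmem119 (-0.49 ± 0.11, adjusted p = 0.0256). P2ry12 did not pass without DBA/2J array 2 (-0.60, adjusted p = 0.173) or without AKR/J array 3 (-0.80, adjusted p = 0.122), and Tmem119 did not pass without DBA/2J array 2 (-0.47, adjusted p = 0.0804). In all, these 2 did not pass under 9 and 7 of 16 alternatives. Over the 10 microglial genes, mean levels were 6.12 to 6.22 on the DBA/2J arrays and 6.24 to 6.57 on the AKR/J arrays. Tfrc, the transferrin receptor, was higher by 0.40 ± 0.09 (adjusted p = 0.0313) and was the call among 5 red blood cell genes. It was called on 1 of 3 probe sets and did not pass under 6 of 16 alternatives. Oligodendrocyte, endothelial, choroid plexus and ependymal, pituitary and lymphocyte markers had 0 calls by limma, and 1, 1, 0, 0 and 0 members at an unadjusted p under 0.05, beside 7.78% of all genes.

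Hormone genes of the anterior pituitary differed widely between arrays. Gh measured 10.92, 12.36 and 10.98 in sleep-deprived DBA/2J and 9.83, 11.00 and 11.41 in sleep-deprived AKR/J, and 12.87, 10.36 and 11.11 in control DBA/2J against 5.03, 5.18 and 4.68 in control AKR/J. The sleep-deprived strains overlapped (0.67 ± 1.37, adjusted p = 0.9998), while the AKR/J controls were far below the other 9 of these 12 arrays. Over the 8 pituitary genes the mean level was 6.96 to 7.66 on DBA/2J and 6.35 to 7.04 on AKR/J arrays after sleep deprivation, and 6.67 to 8.14 on DBA/2J and 5.18 to 5.39 on AKR/J arrays in controls. Pomc, the precursor of melanocortins and endorphin, is made in the pituitary and in hypothalamic neurons and measured 9.39, 10.04 and 8.77 in sleep-deprived DBA/2J and 6.68, 8.43 and 8.58 in sleep-deprived AKR/J. The strains did not overlap, and the difference of 1.5 ± 0.82 did not pass (adjusted p = 0.798). With Gh as a covariate, an alternative chosen after the data were seen, 674 probe sets were called in sleep-deprived brain and 657 of these were among the 704 in the same direction.

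In sleep-deprived liver, DBA/2J and AKR/J differed at 2322 probe sets (5.16%), with 1310 higher (2.91%) and 1012 lower (2.25%), and at 1220 genes (6.71%), with 712 higher (3.91%) and 508 lower (2.79%). Of the brain calls, 236 were called in the same direction in liver, which is 33.5% of the brain calls and 10.2% of the liver calls, and 16 in the opposite direction. The difference between tissues was not tested. Of the 30 leading genes, 15 were called in the same direction in liver, among them Cap1 (3.02) and Rbm45 (1.92), and 13 were not called, among them Snhg14 (-0.13) and Kcnma1 (0.11). The other 2, Acer3 and Ddah1, were lower in DBA/2J brain and higher in DBA/2J liver, by 0.81 and 0.97. In all, 197 probe sets were called in the same direction in both brain comparisons and in liver, 91 higher and 106 lower.

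The mean of the sleep-deprived C57BL/6J brains was nearer to DBA/2J at 332 of the 704 called probe sets and nearer to AKR/J at 372, or 47.2% nearer to DBA/2J, against 52.1% of all probe sets. By direction, C57BL/6J was nearer to DBA/2J at 59.1% of the 350 higher and 35.3% of the 354 lower in DBA/2J. By the brightest probe set, C57BL/6J lay with AKR/J for Cap1, Stab2 and Rbm45 (5.60, 4.18 and 4.88). It lay with DBA/2J for H2-K1, Kcnma1 and Ogfrl1 (8.01, 8.65 and 9.35). In the order of genes along chromosomes in assembly GRCm38.p6, 11 of the 280 called genes (3.93%) had a neighbouring measured gene called in the same direction. These formed 5 runs, of which the longest held Pomt1, Uck1 and Swi5, all lower in DBA/2J. Adjacent called genes had the same direction in 6 pairs and opposite directions in 8. Over all genes 0.665% were called higher and 0.874% lower, and whether called genes cluster was not tested.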

How the data were processed

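RNA of whole brain and liver was measured on Affymetrix mouse expression arrays, 3 pools of 3 mice per group. The authors deposited log2 expression values that RMA produced (per the submitters' processing notes, which name no version). RMA compresses differences of dim probe sets, and no detection calls were used. Values were not normalised further. Arrays have no sequencing depth; precision is limited by how few arrays there were.

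Brain arrays (18, in 6 groups) were fitted together with limma 3.58.1 in R 4.3.3 and liver arrays separately. Two-sided p-values were corrected by Benjamini-Hochberg over all 45037 probe sets, with a threshold of 0.05; 64 control probe sets were left out. Of these probe sets, 34945 had 1 gene symbol in the platform annotation, updated through RefSeq identifiers, 932 had several and 9160 had none. A gene was represented by its brightest probe set, judged by the mean of the 18 brain arrays. Values after ± are limma standard errors. Named genes were the 15 largest called differences in each direction, the 5 smallest p of the sleep-deprived minus control difference, up to 4 members of each of 27 lists with the largest difference, and a fixed set of genes; other genes that are named were chosen after their values were seen. The members and lists were chosen with earlier results of these data known. A listed gene is not reported here.

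Same-numbered arrays of the strains deviated from their group means with correlations of 0.44, -0.52 and -0.49, so the replicate numbers were not taken as pairs. The fit was tested on simulated data. Alternatives were other samples in the fit, scaling, a filter on means above 5, an intensity trend, array weights, a replicate block and leaving out arrays.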

Additional observations from a re-analysis of the deposited data

Results flagged for a closer look

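For 3 genes among those with the smallest p for the change in strain difference, the DBA/2J arrays did not overlap the AKR/J arrays in either condition and lay on opposite sides of them. For Egr1 the difference between DBA/2J and AKR/J in sleep-deprived minus that in control brain was -0.76, for Nr4a1 it was -0.92, and for Tifa, an adaptor protein of inflammatory signalling, it was 0.51. Limma's test of this change gave adjusted p-values of 0.839, 0.839 and 1, so none passed. With array weights Egr1 passed, while Nr4a1 and Tifa passed under 0 of 23 alternatives. Tifa measured 5.59, 5.54 and 5.46 in sleep-deprived DBA/2J and 5.31, 5.23 and 5.01 in sleep-deprived AKR/J, and 5.22, 5.40 and 5.45 in control DBA/2J against 5.50, 5.57 and 5.47 in control AKR/J. Over all probe sets, 111 (0.246%) showed such a pattern of opposite sides, and 1788 (3.97%) were free of overlap on the same side in both conditions.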

How the results depend on the processing

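Under all 16 alternatives of the sleep-deprived comparison 0 calls turned direction. The 704 calls (350 higher, 354 lower) became 282 (141 and 141) with only these groups in the fit and 2092 (1146 and 946) with array weights; leaving out arrays in turn gave 476 to 715 (226 to 435 higher, 216 to 438 lower). The replicate block gave 651 calls, 637 of them shared in direction, and quantile normalisation 812. Leaving out the 3 arrays of narrow spread (DBA/2J 2, AKR/J 3 and C57BL/6J 1, all sleep-deprived), chosen after the data were seen, gave 874. Of the 30 leading genes, 27 passed throughout; Slc8a1, Serpina1b and Pcdhb9 did not in 3, 4 and 1. In controls the 714 calls became 2261 (1084 and 1177) with array weights and 271 (115 and 156) when AKR/J controls 2 and 3, with their conflicting ZT, were left out, and 510 to 545 (245 to 280 and 253 to 298) without single arrays. The test of the change gave 3 with only the groups concerned, 3 with array weights and 0 to 1 without single arrays. Liver gave 1479 to 2192 calls (834 to 1250 and 632 to 942) without single arrays. With array weights, where 2092 calls were set against 714, the share of calls also among the main control calls was 28.7%. It was 92.9% with only these groups and 64.1% to 80.3% without single arrays. In the same order, the share with liver was 19.2%, 48.9% and 31.7% to 40.8%. The 18 called list members became 8 with only these groups, 43 with array weights, 28 counting any probe set and 11 to 23 without single arrays. Called genes beside a called neighbour were 10.2% with array weights and 1.51% to 3.69% without single arrays. Genes with several probe sets, called in 1 direction with some not called (294), numbered 133 with only these groups, 825 with array weights and 207 to 319 without single arrays. The cause of these changes was not tested. With 3 pools a group, dim probe sets and small differences are the least certain.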
